A study of Mus musculus with 2 samples.

Results

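The genes described here are the 5 enzymes of the hepatic urea cycle (Cps1, Otc, Ass1, Asl and Arg1) and 3 genes that release ammonia from amino acids in the periportal liver (Hal, Sds and Gls2), that is, 8 of the 31053 gene rows of the table. They were chosen by name and followed in barcodes called hepatocytes when Alb, Apoa1, Apoa2, Ttr and Fgb together made up at least 1% of the UMIs (unique molecules) assigned to genes. Of 10211 barcodes that passed quality control, 8501 met this rule. Livers came from 3 female C57BL/6 mice (BL6 in the labels), injected at 6 to 8 weeks of age by the hydrodynamic tail-vein method, which delivers plasmids to some of the hepatocytes, and taken on day 6. The injected transposon coded for mVenus, a fluorescent reporter, and NRAS under the strong CAGGS promoter, together with a plasmid for the transposase. In 2 mice the insert was oncogenic NRAS(G12V), and in 1 control mouse it was NRAS(G12V/D38A), in which a second change in the effector loop is added. All 3 mice therefore carried the vector, and none was uninjected. Dissociated cells of each liver were given their own hashtag, an antibody with a DNA tag, sorted for mVenus, and pooled for 10x Genomics 3′ single-cell RNA sequencing.

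The deposited hashtag table gives hashtag 1 to the D38A mouse, whereas the methods give hashtag 3 to it. The mice are therefore named mouse 1, 2 and 3 by hashtag, genotype was left out of the tests, and with 1 control mouse no test of genotype was possible. What could be compared was hepatocytes of different Nras level within a mouse. The mouse Nras row took up reads of the construct, and neither it nor mVenus was counted in library sizes.

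The urea cycle turns ammonia into urea. Cps1 and Otc work in the mitochondrion, where they make carbamoyl phosphate and citrulline, and Ass1, Asl and Arg1 complete the cycle in the cytosol, through argininosuccinate and arginine to urea and ornithine. These enzymes are a hallmark of differentiated hepatocytes and are most abundant around the portal vein. Hal deaminates histidine, Sds deaminates serine and Gls2 is the liver glutaminase, so all 3 feed ammonia into the cycle. The few hepatocytes that ring the central vein instead express Glul, glutamine synthetase, which captures the ammonia that escapes the periportal cells.

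The genes lie on 5 chromosomes of GRCm38 (mm10), and all are protein coding in GENCODE. Hal (chr10:93488768-93519304), Gls2 (chr10:128194457-128210004) and Arg1 (chr10:24915221-24927484, minus strand) are on chromosome 10. Asl (chr5:130011258-130029247, minus strand) and Sds (chr5:120476526-120483932) are on chromosome 5. Cps1 is at chr1:67123026-67231259, Ass1 at chr2:31470207-31520672 and Otc at chrX:10252305-10321024. The RefSeq promoter table held 3 of the 8 genes. The bases before the start sites of these 3 are shown, since all 8 genes were lower at high than at baseline Nras. All are on the plus strand of GRCm38.p6 and cut where the first annotated start begins. The windows are chr10:93488518-93488767 for Hal, chrX:10252055-10252304 for Otc and chr2:31470020-31470206 for Ass1. Capitals mark matches to the motifs searched.
Hal: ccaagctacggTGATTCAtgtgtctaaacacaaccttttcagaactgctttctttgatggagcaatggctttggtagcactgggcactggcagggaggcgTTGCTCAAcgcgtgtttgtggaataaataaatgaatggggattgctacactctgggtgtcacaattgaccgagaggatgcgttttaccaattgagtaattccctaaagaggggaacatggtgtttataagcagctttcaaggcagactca
Otc: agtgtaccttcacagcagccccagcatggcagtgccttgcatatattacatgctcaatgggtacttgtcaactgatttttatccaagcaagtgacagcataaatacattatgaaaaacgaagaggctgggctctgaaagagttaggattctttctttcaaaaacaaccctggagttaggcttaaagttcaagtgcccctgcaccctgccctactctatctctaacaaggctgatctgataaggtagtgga
Ass1: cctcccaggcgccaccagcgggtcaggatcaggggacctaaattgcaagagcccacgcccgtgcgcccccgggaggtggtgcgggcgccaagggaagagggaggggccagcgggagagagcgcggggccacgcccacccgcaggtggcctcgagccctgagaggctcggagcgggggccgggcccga

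Both strands were searched for a C/EBP motif (TTNNGCAA), an AP-1 motif (TGANTCA), a cAMP response element (TGACGTCA), a nuclear receptor motif (AGGTCA), an HNF4 motif (CAAAGTCC) and an E-box (CACGTG). Hal held 1 C/EBP match on the opposite strand, which began 150 bases before the start, and 1 AP-1 match, which began 239 bases before it, and the matches did not overlap. Otc and Ass1 held no match in these windows. Of 32851 promoter windows of 250 bases in the same table, 9.56% held the C/EBP motif and 6.75% the AP-1 motif, so these letters were not rare, and a match is a description of the sequence only. The shares for the other motifs were 1.55%, 14.0%, 1.2% and 6.02% in the order given.

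Sequencing depth divided the hepatocytes into 2 unequal sets. Of the 8501, 2306 had at least 10000 UMIs (deep) and 6195 had from 1000 to under 10000 (shallow). Hashtag calls were made for 456, 1400 and 422 hepatocytes of mice 1, 2 and 3, whereas 6107 had no hashtag call and 115 carried more than 1 tag. Mouse 3 gave only 25 deep hepatocytes, against 231 and 1129. No barcode occurred more than once. Near the marker limit, 340 barcodes had a share of 1% to under 1.2% and 221 one of 0.8% to under 1%. Shallow barcodes are described separately. Levels below are CPM, the UMIs of a gene per 1000000 gene UMIs. Statements that groups do not overlap describe the values of the named gene only. The share of all genes that separate likewise was not counted.

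To examine how the urea cycle genes varied with the transgene, the deep hepatocytes were divided by Nras CPM into baseline (under 300, 1723 barcodes), low (from 300, 267 barcodes), intermediate (from 1000, 155 barcodes) and high (2500 or more, 161 barcodes). Counts were summed per mouse and class where at least 5 barcodes were present. Mouse 1 contributed 153, 31, 20 and 27 barcodes to these classes and mouse 2 contributed 827, 137, 80 and 85. Mouse 3 had 21 baseline barcodes but only 1, 1 and 2 in the others, so every difference between Nras classes rests on mice 1 and 2. By the methods both of these carried NRAS(G12V), whereas by the deposited hashtag table mouse 1 was the D38A control. A difference between these mice therefore cannot be told apart from genotype. Sums of 1 mouse come from 1 liver. With the mouse as a block, the tests rest on how the differences between classes vary from mouse to mouse, here between mice 1 and 2. In bulk sums of this kind, fewer expressing cells and less RNA per cell cannot be told apart, and single barcodes are described further on.

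All 8 genes fell in hepatocytes with high Nras. Cps1, Otc and Arg1 fell by 3.26 or more on the log2 scale, and Asl fell by only 0.55. In edgeR's quasi-likelihood test with the mouse as a block, all 8 passed an adjusted p of 0.05 in this comparison, where 21.8% of 11914 genes passed in either direction and 11.0% passed as lower. The median log2 fold change was -2.87 over the 8 genes and -0.05 over all genes tested.

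Within the mitochondrial steps, Cps1, which makes carbamoyl phosphate and sets the pace of the cycle, stood at 144, 164 and 120 CPM in the baseline hepatocytes of mice 1, 2 and 3. In the high class it stood at 32.9 in mouse 1 and 8.89 in mouse 2, from 46 UMIs in each. The groups did not overlap, although the drop was deeper in mouse 2 (log2 fold change -4.24 by itself, against -2.07 for mouse 1). The fitted change was -3.26 ± 0.42 (SE, edgeR adjusted p = 0.000166). Otc, which joins carbamoyl phosphate to ornithine, went from 222, 137 and 310 CPM at baseline to 33.6 and 10.2 at high Nras. The high values lay well below all 3 baseline values, and the fitted change was -3.26 ± 0.24 (edgeR adjusted p = 3.61e-06).

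The cytosolic enzymes did not move alike. Ass1, which condenses citrulline with aspartate, was at 469, 283 and 801 CPM at baseline and at 114 and 84.8 at high Nras, a change of -1.87 ± 0.12 (edgeR adjusted p = 1.44e-06). Asl, which splits argininosuccinate into arginine and fumarate, was at 129, 119 and 151 CPM at baseline and at 92.3 and 77.5 at high Nras. The values again did not overlap, but the change was small, at -0.55 ± 0.12 (edgeR adjusted p = 0.00725), and it no longer passed when hepatocytes were required to have a marker share of at least 5% (-0.17). Arg1, which cleaves arginine to urea, was at 262, 174 and 367 CPM at baseline and at 37.9 and 12.8 at high Nras, a change of -3.31 ± 0.24 (edgeR adjusted p = 3.21e-06). The cycle was thus lowered unevenly, with Asl the least affected of its 5 enzymes in these sums.

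The ammonia-releasing genes fell as well. Hal was at 56.8, 36.9 and 50.2 CPM at baseline and at 19.3 and 3.48 at high Nras, and the fitted change was -2.49 ± 0.35 (edgeR adjusted p = 0.000322). The decline of Hal was larger in mouse 2 (-3.44 by itself) than in mouse 1 (-1.5), though neither single value has a test. Sds was at 23.7, 10.8 and 24.0 CPM at baseline, and only 4 UMIs remained in the high class of each mouse, which amounts to 2.86 and 0.77 CPM. The fitted change of Sds was -3.44 ± 0.42 (edgeR adjusted p = 0.000115). Gls2 was at 55.7, 33.8 and 72.1 CPM at baseline and at 13.6 and 7.54 at high Nras, and its change of -2.10 ± 0.18 (edgeR adjusted p = 9.85e-06) was similar in both mice (-1.97 and -2.20).

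**Figure D1:**
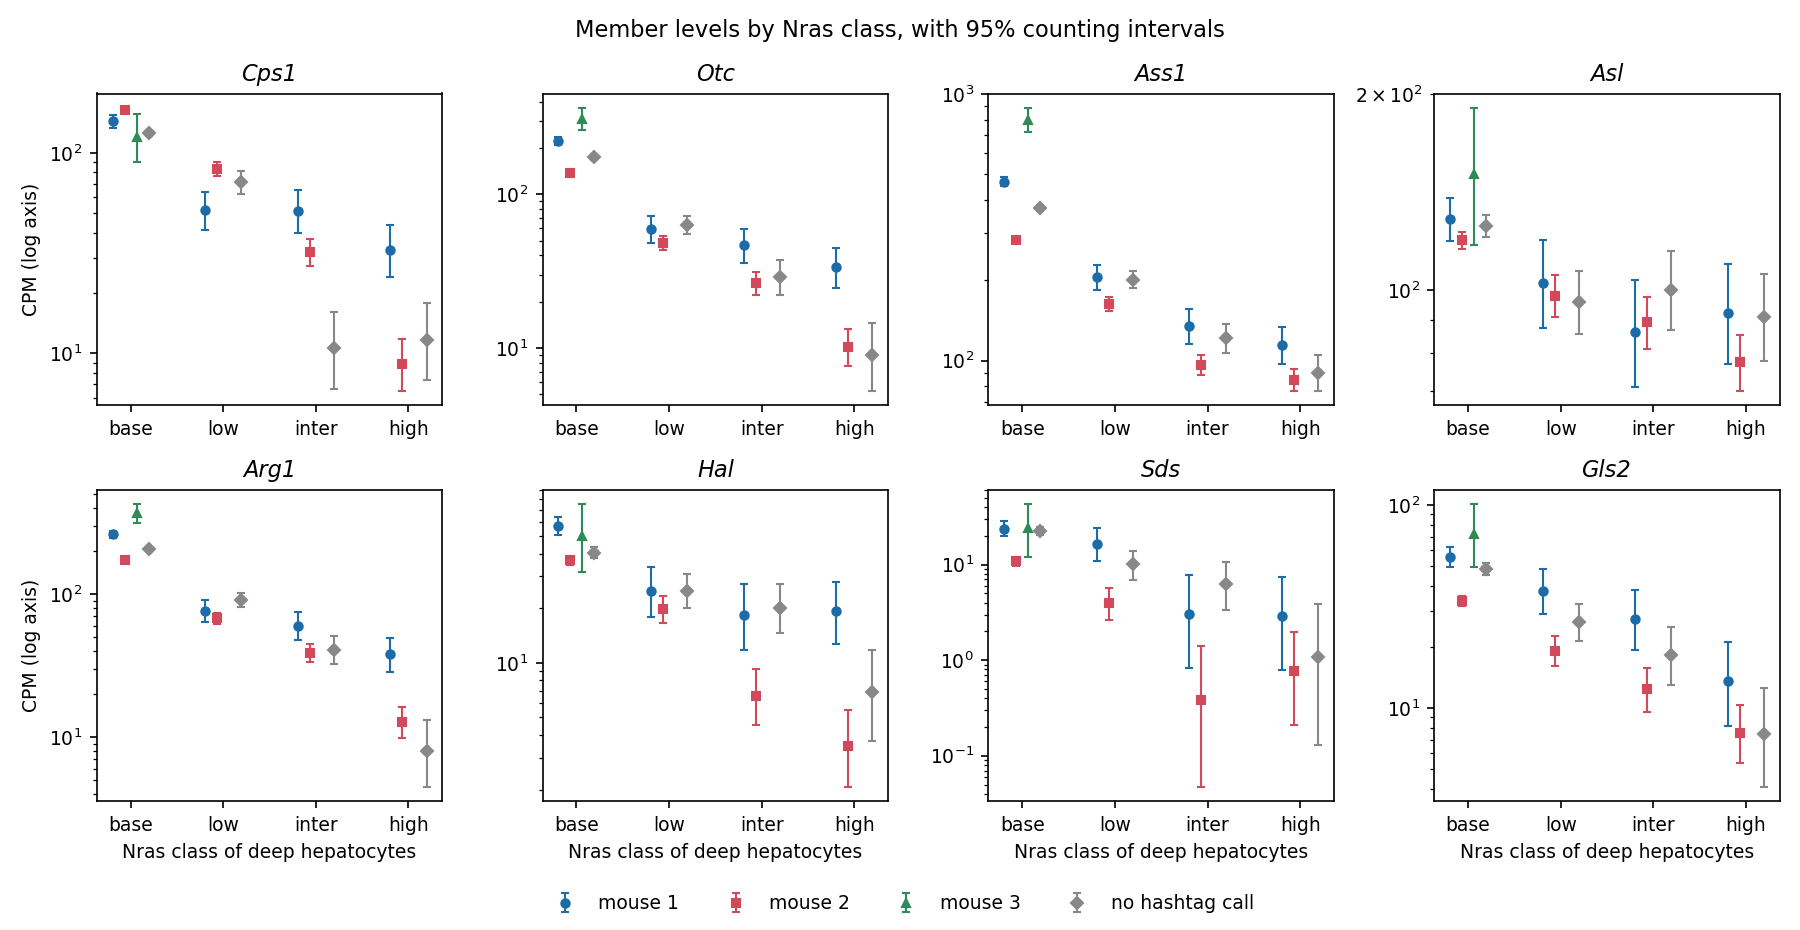
Level of each gene in CPM (log axis) by Nras class of deep hepatocytes (base, baseline; inter, intermediate), for each mouse with at least 5 barcodes in the class and for barcodes with no hashtag call. Bars are exact Poisson 95% intervals, which cover counting error only, and the high class lies below baseline in every panel, least so for Asl.

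Barcodes that could not be assigned to a mouse were not used in the test, and in them the pattern can be described only. They comprised 665 baseline and 44 high deep hepatocytes. There Cps1 was at 126 CPM at baseline and 11.7 at high Nras, Otc at 174 and 9.06, Ass1 at 374 and 90.1, and Arg1 at 208 and 7.99. All of these were several-fold lower in the high class. Asl again changed least, from 126 to 91.1 CPM.

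Other measures moved with Nras class as well. The median barcode held 36158 UMIs at baseline (28435, 41918 and 14838 in mice 1, 2 and 3). At high Nras it held 53515 (50645 and 59160 in mice 1 and 2). Levels varied with depth within baseline, with Otc at 436 CPM from 10000 to under 20000 UMIs and 133 from 20000 to under 40000. The 5 hepatocyte markers that defined the cells summed to 91920 CPM at baseline and 46748 at high Nras, so the high class was poorer in these secretory transcripts too. With a marker share of at least 5% required, the estimates lay closer to 0 for all 8 genes, with Cps1 at -2.21 and Otc at -2.32. The 5 dendritic cell markers together were at 2623, 250 and 1703 CPM at baseline and 575 and 324 at high Nras, with 1 of the 5 at 0 in mouse 3 at baseline and in mouse 1 at high Nras. The 6 endothelial markers together ranged from 11.4 to 815 CPM at baseline and from 5.60 to 17.2 at high Nras, where 4 and 2 of them were at 0 in mice 1 and 2. When barcodes with over 0.5% of such markers were left out, all 8 genes were still called lower, with Cps1 at -3.31 and Asl at -0.53. Of all 11555 genes tested there, 1481 were called lower. In barcodes without a hashtag call, the dendritic cell and endothelial markers summed to 34.8 and 5.48 CPM at baseline. There the levels given above were lower at high Nras too. The 4 cholangiocyte markers summed to between 2527 and 3740 CPM at baseline and to 14131 and 18734 at high Nras, nearly all of it Spp1 (14130 and 18725), which is osteopontin. Krt19, which defines cholangiocytes, had 3, 27 and 0 UMIs at baseline and 0 in the high class of both mice, although it had 94 UMIs (13.2 CPM) in the low class of mouse 2. Krt7 had 0 and 3 UMIs in the high class. Epcam was at 2.62, 0.48 and 0 CPM at baseline and at 1.43 and 8.31 at high Nras, from 2 and 43 UMIs, so it was higher in mouse 2 only. The part of these markers in the result was not tested.

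The decline was already present at intermediate Nras. Cps1 stood there at 51.2 CPM in mouse 1 and 31.9 in mouse 2, Otc at 46.6 and 26.3, Arg1 at 60.3 and 38.7 and Asl at 86.3 and 89.2. Each of these values lay below all 3 baseline values of its gene. All 8 genes fell in the test, against 15.7% of genes called in either direction (7.95% lower and 7.80% higher). The median change was -2.04 over the 8 genes and -0.04 over all genes. Sds showed the largest estimate, at -3.79 ± 0.45 (edgeR adjusted p = 0.000166), from 4 UMIs in mouse 1 and 2 in mouse 2. Otc changed by -2.30 ± 0.22, Arg1 by -2.12 ± 0.22, Hal by -2.11 ± 0.33 and Cps1 by -1.97 ± 0.36. Ass1 changed by -1.65 ± 0.12, Gls2 by -1.25 ± 0.17 and Asl by -0.46 ± 0.12, with edgeR adjusted p = 0.0246 for Asl, the highest of the 8. This comparison was less secure than the former, since a marker share of at least 5% left only Otc, Ass1 and Sds past the threshold, and DESeq2 called 6 of 8, without Cps1 and Asl.

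**Figure D2:**
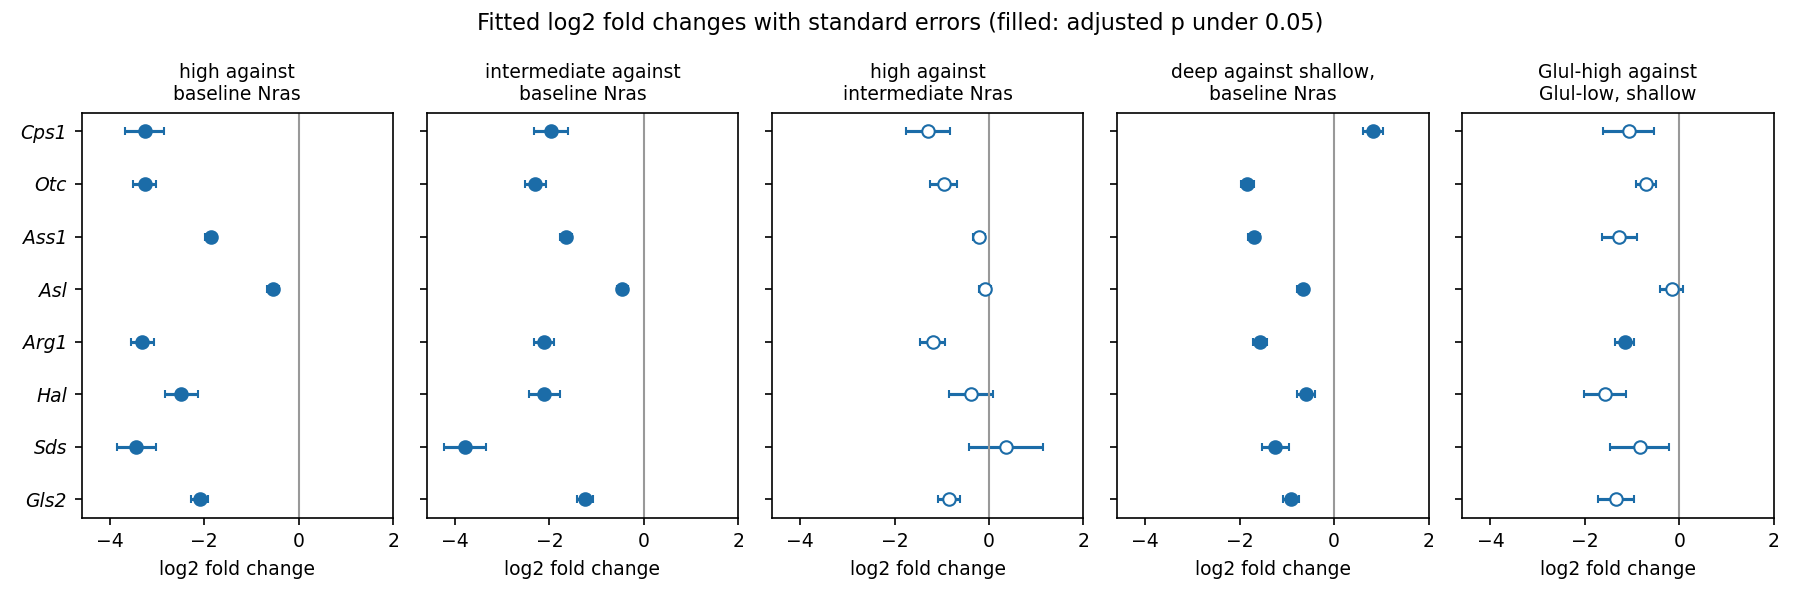
Fitted log2 fold change of each gene in the 5 comparisons, with standard errors from edgeR; filled points passed an adjusted p of 0.05. All 8 genes lie below 0 in the comparisons with baseline Nras, none is filled between high and intermediate Nras, and Cps1 alone lies above 0 between deep and shallow barcodes.

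Between intermediate and high Nras, no gene of the 8 passed in edgeR, where only 1 of 11914 genes did (0.00839%). At an unadjusted p under 0.05, 4 of the 8 genes and 582 of all genes were counted, and DESeq2 called 0 of the 8 and 8 genes in all. Arg1 had a log2 fold change of -1.19 ± 0.27 (edgeR adjusted p = 0.33), Cps1 of -1.29 ± 0.47, Otc of -0.96 ± 0.28 and Gls2 of -0.85 ± 0.22. Estimates for Ass1 (-0.22 ± 0.12) and Asl (-0.09 ± 0.13) were close to 0, and Sds (0.35 ± 0.78) could not be resolved from its few UMIs. Without a filter on low counts, Arg1, Cps1 and Otc passed, where 199 of 17690 genes did.

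In the low class, which was part of the fit but was compared in no test, the levels already lay below baseline in both mice. Cps1 was at 51.9 and 82.9 CPM, Otc at 59.2 and 48.5, Arg1 at 76.3 and 67.6, and Asl at 103 and 98.1.

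Finer steps of Nras gave a graded picture when all deep hepatocytes were pooled, those without a hashtag call and with more than 1 tag included. With Nras under 50 CPM (830 barcodes), Otc stood at 188 CPM (95% Poisson interval 183 to 193) and Cps1 at 173 (168 to 178). At 200 to under 300 Nras CPM, still within the baseline class (130 barcodes), Otc stood at 84.3 and Cps1 at 86.5, and at 4000 and above (100 barcodes) they stood at 13.6 and 14.7. The lowering was thus visible below the limit that defined the baseline class. Ass1 changed from 373 to 81.8 CPM between the first and the last step, Arg1 from 225 to 18.0 and Gls2 from 46.9 to 6.88. Asl covered a much narrower range, from 127 to 79.3. The order was not strictly monotonic, since 5 of the 8 genes were higher at 300 to under 500 Nras CPM than in the step before. There Cps1 was at 108 CPM, Hal at 31.2 (22.8 before), Gls2 at 27.9 (23.2), Sds at 10.5 (9.59) and Arg1 at 106 (105), and only for Cps1 did the intervals of these steps not overlap. Pooled cells are not replicates, and these intervals cover counting error only.

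**Figure D3:**
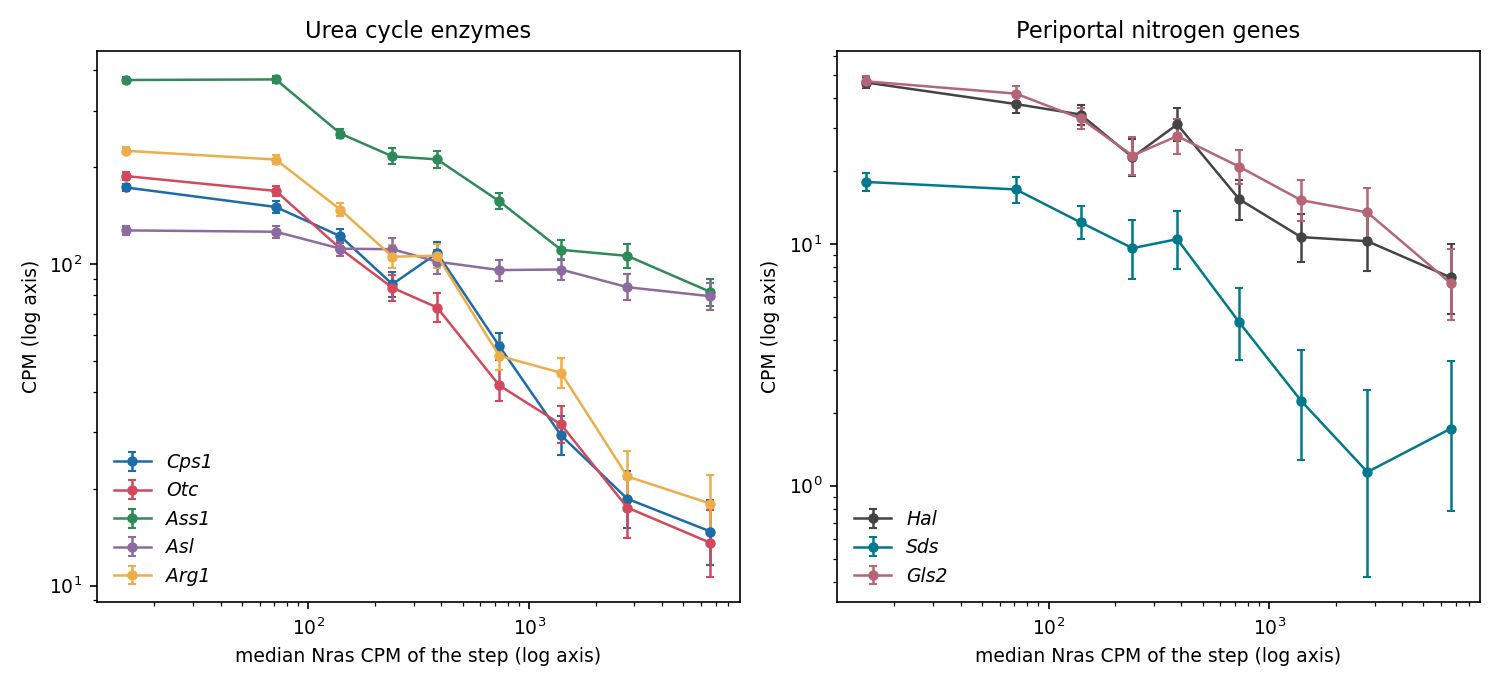
Pooled level of each gene (CPM, log axis) in 9 steps of Nras among deep hepatocytes, placed at the median Nras level of the step (log axis), with exact Poisson 95% intervals. Otc declines at every step, Cps1, Arg1, Hal, Sds and Gls2 decline with a halt or rise at the fifth step (Sds also at the last), and Asl runs from 127 to 79.3 CPM.

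The fluorescent reporter of the same transposon, which had no part in the classes, gave the same order. In deep hepatocytes without an mVenus UMI, Otc was at 254, 150 and 266 CPM in mice 1, 2 and 3. With 100 or more mVenus CPM it was at 43.9 in mouse 1 and 15.3 in mouse 2, from 51 and 177 barcodes. Arg1 likewise stood at 288, 180 and 308 without mVenus and at 53.7 and 13.8 with it. Asl stood at 134, 122 and 136 without mVenus and at 93.3 and 80.1 with it. The construct reads in the Nras row and mVenus come from 1 transposon, so this is nearly the same contrast read from other counts.

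Single barcodes showed whether the lowering concerned a few cells or most of them. Each deep barcode was thinned to 10000 UMIs and the UMIs of the 5 urea cycle enzymes were added up. In mouse 1 the median barcode held 11 such UMIs at baseline, 3 at low, 3 at intermediate and 2 at high Nras, and in mouse 2 it held 7, 4, 2 and 1. The upper tail was lost as well, with 90th percentiles of 44.8 and 7.4 in mouse 1 and of 20 and 3 in mouse 2 for baseline and high. Barcodes with none of these UMIs made up 3.27% of baseline and 22.2% of high barcodes in mouse 1, and 3.75% and 25.9% in mouse 2. The whole distribution was therefore shifted, and no high barcode of either mouse held more than 13.

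**Figure D4:**
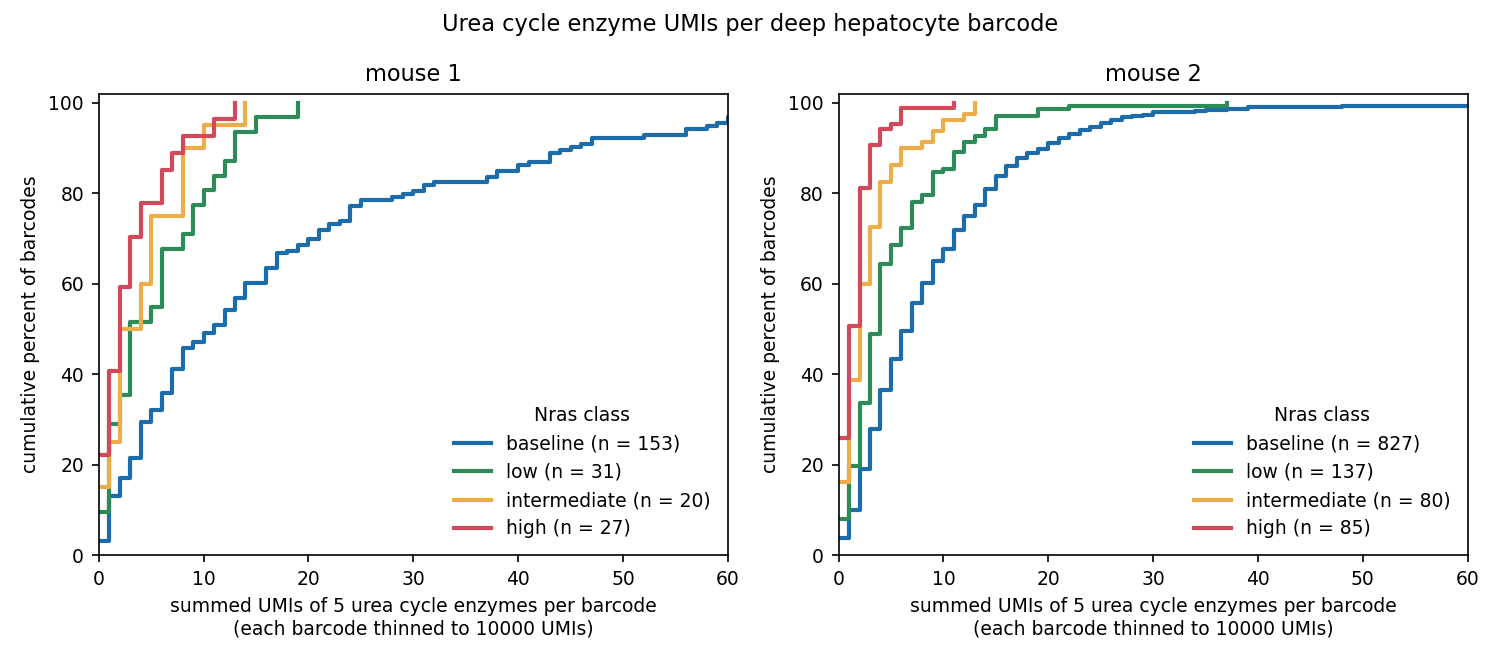
Cumulative percent of deep hepatocyte barcodes against the summed UMIs of Cps1, Otc, Ass1, Asl and Arg1 per barcode, each thinned to 10000 UMIs, by Nras class in mice 1 and 2; the axis ends at 60 UMIs, beyond which only baseline barcodes lie. The high class reaches 100% by 13 UMIs in mouse 1 and 11 in mouse 2, and the baseline class is spread furthest to the right.

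Shares of barcodes with at least 1 UMI were compared after thinning to 2000 UMIs. Cps1 was found in 19.4% (exact binomial 95% interval 17.6 to 21.4) of deep baseline and 1.86% (0.386 to 5.35) of deep high barcodes, against 64.4% and 23.0% before thinning. In the 1710 barcodes with a marker share under 1% it was found in 4.06% (3.16 to 5.14), or 8.89% unthinned, at a median of 6836.5 UMIs. These barcodes are no clean background, since they held Nras at 740 CPM and mVenus at 53.5 CPM, and whether hepatocytes were among them was not tested. Arg1 was found in 26.4% at baseline, 3.11% (1.02 to 7.10) at high Nras and 12.3% (10.8 to 14.0) in the barcodes under 1%, and Otc in 24.5%, 3.11% (1.02 to 7.10) and 12.7% (11.1 to 14.4). The high class thus lay below the barcodes poor in hepatocyte markers for both genes, and no floor for these shares could be set. Unthinned, Arg1 was found in 67.2%, 28.6% and 20.6% and Otc in 75.9%, 36.6% and 20.6%. For Asl the thinned share was 23.0% at baseline and 12.4% (7.76 to 18.5) at high Nras, beside 12.2% (10.6 to 13.9) in the barcodes under 1%, with unthinned shares of 92.4%, 91.9% and 33.0%.

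Because Asl was lowered least, it took a growing share of the UMIs of the 8 genes. It made up 11.6% of them at baseline, 18.3% at low, 27.5% at intermediate and 35.2% at high Nras. Over the same classes the share of Otc went from 15.0% to 6.2%, that of Arg1 from 18.5% to 7.1% and that of Cps1 from 14.1% to 5.9%. Ass1 moved less, between 31.7% and 38.4%. Reads come from transcript 3′ ends, and each share is compared with itself across classes rather than with that of another gene.

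**Figure D5:**
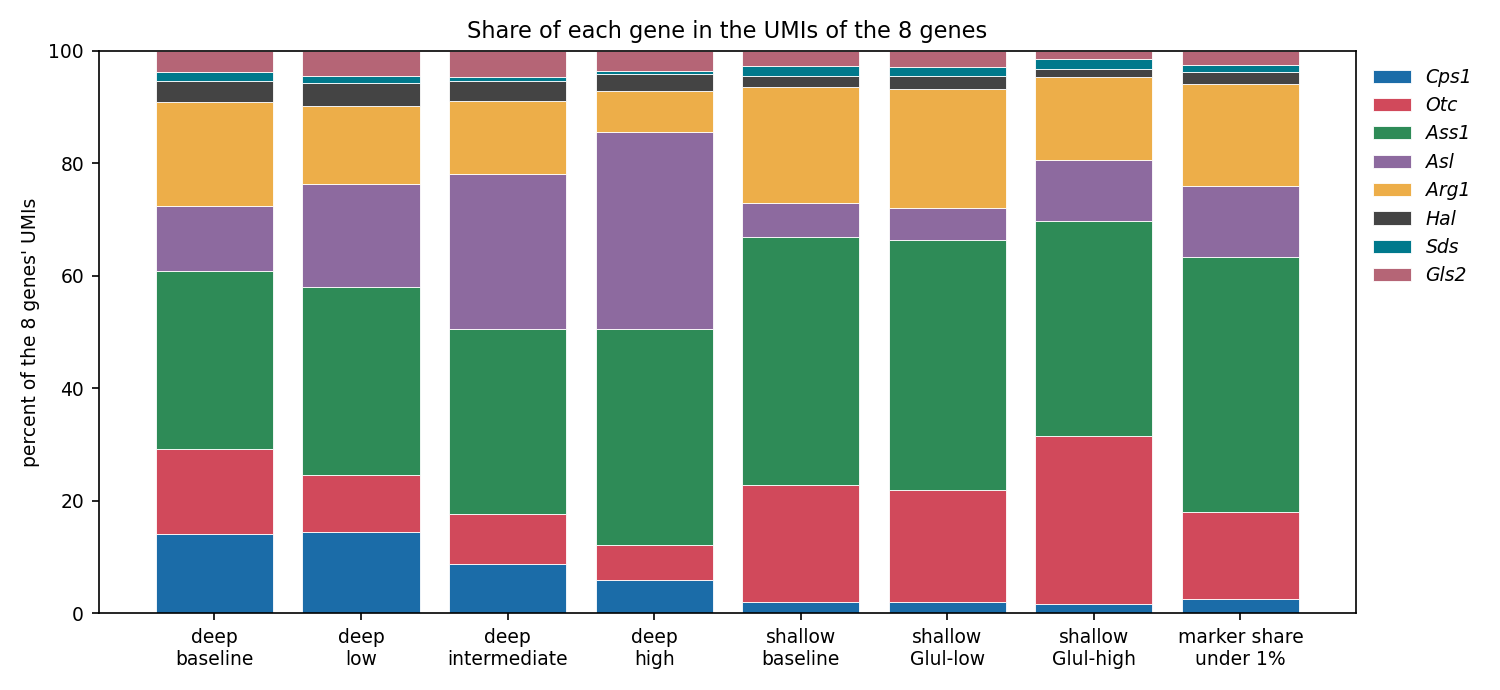
Percent of the summed UMIs of the 8 genes that each gene contributes (stacked to 100), pooled over all barcodes of a class. Asl widens from 11.6% to 35.2% across the deep Nras classes, and Cps1 is 14.1% in deep baseline but 1.9% in shallow baseline barcodes.

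Other genes of nitrogen metabolism mostly moved in the same direction. Of 42 listed, 41 were tested in the high against baseline comparison, where 32 were lower, 3 were higher and 6 did not pass; the median was -1.33. The largest changes were in Tat, tyrosine aminotransferase (-4.63 ± 0.37), Gnmt, glycine N-methyltransferase (-3.80 ± 0.19), Slc1a2, a glutamate transporter (-3.76 ± 0.66), Hpd of tyrosine breakdown (-3.67 ± 0.17), Car5a, a mitochondrial carbonic anhydrase that supplies bicarbonate to Cps1 (-3.45 ± 0.35), and Agxt, an aminotransferase of glyoxylate (-3.35 ± 0.25). Tat, for example, stood at 27.7 and 26.3 CPM at baseline in mice 1 and 2 and at 2.15 and 0.77 at high Nras. The direct accessories of the cycle are named here for their role, after their values were seen. They were Nags (-0.77 ± 0.18), whose product activates Cps1, the ornithine carrier Slc25a15 (-1.54 ± 0.18) and the aspartate carrier Slc25a13 (-0.85 ± 0.17). All were lowered less than these largest changes, but each fell more than Asl, and Slc25a15 lay below the median of the list. At intermediate Nras, 30 of the 41 genes were lower and 2 higher, with Car5a (-3.88 ± 0.38) and Hpd (-3.08 ± 0.16) furthest from 0.

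The 3 genes that rose were Phgdh and Psat1, which synthesise serine, and Arg2, the mitochondrial arginase of non-hepatic tissues, all named after their values were seen. Phgdh went from 6.35 and 11.4 CPM at baseline in mice 1 and 2 to 75.8 and 27.1 at high Nras (2.21 ± 0.47, edgeR adjusted p = 0.00541). Psat1 went from 8.60 and 7.26 to 19.3 and 31.1 (1.81 ± 0.21). Both were higher in each mouse. Arg2 was counted in 5 and 53 UMIs at baseline in mice 1 and 2 and in 2 and 33 at high Nras, that is, 0.93 and 1.5 against 1.43 and 6.38 CPM (1.83 ± 0.53, edgeR adjusted p = 0.0298), so its rise was carried mainly by mouse 2. At intermediate Nras Arg2 was at 8.40 and 5.61 CPM and passed again (2.27 ± 0.53), as did Psat1 (1.60 ± 0.22). Sds breaks serine down, and its direction was opposite to that of the serine synthesis genes.

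Of 13 genes coding for regulators of hepatic nitrogen metabolism, 8 were lower, 0 were higher and 5 did not pass at high Nras. They included Ppargc1a, a coactivator of the fasting response (-2.19 ± 0.49), the bile acid receptor gene Nr1h4 (-1.93 ± 0.20), Klf15, a factor that promotes amino acid breakdown (-1.49 ± 0.22), and Cebpa, a factor of hepatocyte differentiation (-1.39 ± 0.13). Cebpa stood at 122 and 154 CPM at baseline and at 49.4 and 55.3 at high Nras. At intermediate Nras 6 of the 13 were lower and 0 higher.

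Zonation markers of both ends of the lobule were lowered at high Nras. Of 10 periportal markers, 6 were lower, led by Etnppl (-7.10 ± 1.58), Cyp2f2 (-4.58 ± 0.48), Pck1 (-3.69 ± 0.36), Pigr (-3.20 ± 0.45), Hsd17b13 (-2.88 ± 0.28) and Apof (-2.09 ± 0.25), and 1, Ctsc, was higher (1.14 ± 0.15). Etnppl had the largest SE of these. In the high class, 1 of the 10 markers had no UMI in mouse 1 and 1 had none in mouse 2, where the size of a change is poorly set. Of 9 pericentral markers tested, 5 were lower and 0 higher. These were the cytochrome gene Cyp2e1 (-4.40 ± 0.18), Slc1a2, Gulo (-1.79 ± 0.25), Glul (-1.20 ± 0.14) and Oat (-1.12 ± 0.33). Cyp2e1 was also the single gene that passed between high and intermediate Nras (-2.40 ± 0.21).

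The 8 genes were next compared between deep and shallow hepatocytes of baseline Nras (for shallow barcodes, at most 1 Nras UMI). On the CPM scale 7 of the 8 genes were lower in the deep barcodes and Cps1 was higher, and all 8 passed, against 31.0% of 7893 genes in either direction (15.2% lower and 15.8% higher). Otc was at 222, 137 and 310 CPM in the deep barcodes of mice 1, 2 and 3 and at 910, 718 and 925 in the shallow ones, and the fitted change was -1.84 ± 0.15 (edgeR adjusted p = 0.000544). Ass1 was at 1695, 1291 and 2393 CPM in the shallow barcodes (-1.70 ± 0.12) and Arg1 at 920, 749 and 903 (-1.57 ± 0.15). Every shallow value of these 3 genes lay above every deep one. Cps1 ran the other way, with 91.4, 80.5 and 109 CPM in shallow barcodes against 144, 164 and 120 in deep ones (0.82 ± 0.21, edgeR adjusted p = 0.0249).

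The other 4 genes were lower in deep barcodes by less than Otc, Ass1 and Arg1. Sds was at 65.4, 19.4 and 106 CPM in the shallow barcodes (-1.24 ± 0.29), Gls2 at 90.1, 90.7 and 161 (-0.91 ± 0.17), Asl at 215, 221 and 288 (-0.67 ± 0.12) and Hal at 84.0, 60.2 and 117 (-0.60 ± 0.18, edgeR adjusted p = 0.0467). Hal was the least certain, since it no longer passed when any 1 mouse was left out. Without mouse 1, Cps1, Hal and Sds did not pass, without mouse 2, Asl, Cps1 and Hal did not, and in both cases 5 of the 8 remained. Deep barcodes were also thinned to 10000 UMIs each and shallow ones to 1000, which evened out depth within each set but not between them. Only Otc (-1.22), Ass1 (-1.16) and Arg1 (-1.03) then passed, where 607 of 4120 genes did. A marker share of at least 5% left only Otc and Ass1, with Hal turned to 0.15.

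The share of Cps1 in the UMIs of the 8 genes also varied with depth. It was 1.9% in shallow baseline, 14.1% in deep baseline and 2.5% in the barcodes with a marker share under 1%. The change did not fall at the limit of 10000 UMIs, since the share was 3.11% in barcodes of 10000 to under 20000 UMIs, 14.7% in those of 20000 to under 40000 and 17.3% above. In finer steps of depth, Cps1 was at 130 CPM in barcodes of 1000 to under 2000 UMIs, 67.2 in those of 10000 to under 20000 and 167 in those of 40000 or more, whereas Ass1 went from 2751 through 881 to 276. Shallow barcodes differed in other ways too. Their median hepatocyte marker share was 2.14%, 2.22% and 1.74% in mice 1, 2 and 3, against 4.79%, 9.17% and 4.05% in deep ones. The median mitochondrial share was 0.922%, 1.79% and 5.75% in shallow and 7.34%, 8.94% and 5.42% in deep barcodes, so mouse 3 lacked the gap seen in the others, and without a hashtag call it was 0.284% and 7.82%. In mouse 3 the 6 endothelial markers, none at 0, summed to 3311 CPM in shallow barcodes (815 in deep ones), and in mice 1 and 2 the 5 dendritic cell markers, none at 0, summed to 2116 and 2867 (2623 and 250). Leaving out barcodes rich in such markers gave -2.12 for Otc and 0.70 for Cps1, with all 8 still called, where 3573 of 6824 genes were. In barcodes without a hashtag call, where these markers summed to 46.0 and 117 CPM in shallow ones, Otc was at 1013 and Cps1 at 91.0 CPM, against 174 and 126 in deep ones. Whether the shallow barcodes were whole cells was not tested.

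Genes of the lists split in this comparison. Of the 37 other nitrogen genes tested, 22 were lower in deep barcodes, led by Hpd (-2.46 ± 0.29), Car5a (-2.42 ± 0.26), Gnmt (-2.33 ± 0.22) and Glul (-2.26 ± 0.14), and 5 were higher, including the membrane transporter genes Slc7a2 (2.34 ± 0.38) and Slc38a3 (2.33 ± 0.30). Of 9 periportal markers tested, 5 were higher and 1, Pck1 (-1.59 ± 0.20), was lower, whereas 4 of 6 pericentral markers were lower and 0 higher. Among 11 regulators, Gcgr, the glucagon receptor gene (1.33 ± 0.30), was higher and Sirt3 (-0.87 ± 0.15) was lower.

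To set the periportal genes against the opposite end of the lobule, shallow barcodes with at least 3 Glul UMIs and at least 1000 Glul CPM (Glul-high, 394 barcodes) were compared with shallow barcodes without Glul (Glul-low, 5117). Deep barcodes were not used. The called barcodes numbered 19, 19 and 20 Glul-high and 178, 212 and 316 Glul-low for mice 1, 2 and 3. Glul-high barcodes were also deeper, with medians of 4217, 4586 and 3656 UMIs against 2902.5, 3468.5 and 2097.5. At baseline Nras, Arg1 went from 1076 CPM at 1000 to under 2000 UMIs to 833 at 5000 to under 10000. Glul class and depth thus differed together here. No limit on Nras was set for these classes (pooled Nras at 177 CPM in Glul-high and 246 in Glul-low barcodes). Only Arg1 passed, lower in Glul-high barcodes, against 1.08% of 4269 genes in either direction and 0.609% lower. Arg1 was at 491, 262 and 578 CPM in Glul-high and at 1008, 839 and 952 in Glul-low barcodes, without overlap (-1.16 ± 0.21, edgeR adjusted p = 0.028). The call was lost without mouse 3, in DESeq2 (which called 0 of the 8) and without the mouse block, whereas Ass1 passed beside Arg1 without mouse 1 and without mouse 2.

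The other 7 genes had negative estimates that did not pass. Hal was at 24.6, 21.0 and 48.2 CPM in Glul-high and at 91.3, 59.6 and 121 in Glul-low barcodes, from 2, 2 and 4 UMIs in the former (-1.57 ± 0.44, edgeR adjusted p = 0.146). Gls2 was counted in 2, 4 and 7 UMIs in Glul-high barcodes, at most 84.3 CPM, against 101, 104 and 163 CPM in Glul-low ones (-1.34 ± 0.38), likewise without overlap. Ass1 was at 1007, 157 and 1939 against 1792, 1446 and 2404, so mouse 2 was far below the others and mouse 3 lay within the range of Glul-low (-1.27 ± 0.38). Cps1 (-1.07 ± 0.54), Sds (-0.84 ± 0.63), Otc (-0.70 ± 0.21) and Asl (-0.16 ± 0.24) were the rest. At an unadjusted p under 0.05, 5 of the 8 genes and 522 of all genes were counted. With hashtags called by a fixed rule instead (at least 10 hashtag UMIs, 80% from 1 tag), 7 of the 8 genes passed as lower, with Asl the exception. Calls over all genes rose there too, to 191 of 4743, of which 156 were lower.

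Glul itself was left out of the test, and of the 13 pericentral markers listed only 6 were tested. Of these 6, 5 were higher in Glul-high barcodes, namely Slc1a2 (8.89 ± 1.12), Oat (3.46 ± 0.19), Lhpp (3.03 ± 0.58), Gulo (2.43 ± 0.47) and Cyp2e1 (1.94 ± 0.39). None of the 4 periportal markers tested passed. Markers of other cells differed as well, with 5 dendritic cell markers at 2321, 147 and 120 CPM in Glul-high (1, 2 and 1 of them at 0) and 2321, 3613 and 812 in Glul-low barcodes, and 6 endothelial markers at 307, 10.5 and 867 (1, 5 and 0 of them at 0) against 367, 446 and 2977. Leaving out barcodes rich in such markers gave -1.49 for Arg1 and -0.93 for Otc, and these 2 genes passed, where 37 of 3702 genes did. In the much larger set without a hashtag call (331 Glul-high and 4376 Glul-low barcodes), Arg1 was at 244 and 1074 CPM, Ass1 at 672 and 2255, Gls2 at 21.5 and 146, Hal at 29.0 and 110 and Cps1 at 25.3 and 96.4. Otc was at 576 and 1004 there and Asl at 207 and 293. All 8 genes were thus lower in that set, with Sds at 30.9 and 86.1, but it cannot be divided by mouse and has no test.

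Among deep baseline hepatocytes, the 8 genes were not spread alike over barcodes. After thinning to 10000 UMIs, all Sds UMIs lay in 10.1% of the 1723 barcodes, where a Poisson spread of the same UMIs would reach 17.4%. Asl came close to such a spread, with 69.2% of barcodes against 72.9%. Cps1 was found in 48.5% against 73.1% and Arg1 in 52.4% against 90.9%, so both were uneven over these pooled barcodes. The pool holds all mice and depths, so differences between mice and between depths are included in the spread. From 10000 to under 20000 and from 20000 to under 40000 UMIs, Arg1 was at 466 and 144 CPM and Cps1 at 67.2 and 138. In thinned barcodes with an Sds UMI, Hal and Gls2 stood higher than in those without one in every mouse, although mouse 3 had only 5 such barcodes. In mouse 2 (51 and 776 barcodes), Hal was at 92.2 CPM (95% Poisson interval 67.7 to 123) against 32.7 (28.8 to 37.0), Gls2 at 94.1 against 28.1, Arg1 at 441 against 166, Cps1 at 294 against 147 and Cyp2f2 at 273 against 34.3. In mouse 1 (25 and 128 barcodes), Hal was at 116 against 57.8, Gls2 at 140 against 51.6 and Cyp2f2 at 56.0 against 41.4. Asl was at 137 against 126 in mouse 2 and at 232 against 141 in mouse 1. Zonation markers gave no single order. Pck1 was higher with Sds in both mice (104 against 28.9 CPM in mouse 1 and 135 against 18.6 in mouse 2), and Hsd17b13 was at 116 against 155 in mouse 1 and 316 against 161 in mouse 2. Of the pericentral markers, Glul was at 148 against 198 in mouse 1 and 120 against 62.4 in mouse 2, Cyp2e1 at 224 against 120 and 163 against 191, and Oat at 228 against 123 and 17.6 against 35.1. Barcodes were split here by a measured gene, within each mouse but not by depth, so these values are a description and no test was made.

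Across 12 sums (mouse by class, 9 of deep and 3 of shallow barcodes), the genes whose log2(CPM + 1) was most like that of the 5 enzymes together were Agmat (Pearson r = 0.997), Hgd, Gnmt, Urah and Scp2 (each 0.996), out of 6708 genes with a mean of at least 10 CPM. For Hal they were Kynu (0.987), Gabarapl1 (0.977), Mup3 (0.974), Maob (0.973) and Pbld1 (0.972), for Sds they were Mup3 (0.975), Ifitm3 (0.957), Dnajc19 (0.953), Gls2 (0.953) and Gabarapl1 (0.948), and for Gls2 they were Gm4952 (0.984), Qprt (0.976), Bhmt (0.976), Gnmt (0.974) and Car8 (0.974). Among the members themselves, Otc and Arg1 were nearly parallel (0.998). Cps1 stood apart, with r = 0.756 to Otc, 0.659 to Ass1 and 0.599 to Asl. The sums share mice, depth and scaling, so these values describe likeness only.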

How the data were processed

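The members and gene lists were chosen with earlier results of these data known. Per the labels, the authors aligned reads to mm10 with Cell Ranger (2.1.1) and deposited raw UMI counts per gene and barcode, and counts of hashtags per barcode, without normalization. The gene table held 142080194 UMIs in 13151 barcodes, of which 13141 were in both tables. Quality control required 1000 UMIs, 500 detected genes and a mitochondrial share below 20%. Hashtags were called with HTODemux (Seurat 5.3.0, positive quantile 0.99), and the 115 hepatocyte barcodes with more than 1 tag entered no sum per mouse but stayed in pooled values (57, 7, 3 and 3 in the deep Nras classes); no other doublet caller was run.

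UMI counts were summed per mouse and class, filtered (filterByExpr), TMM-scaled and tested with edgeR 4.0.16 (quasi-likelihood, mouse as block, 2-sided, Benjamini-Hochberg over all genes), where barcodes of 1 mouse in each class pair the sums. A gene passed at an adjusted p under 0.05. DESeq2 1.42.0 was an alternative. On simulated sums, 85.7% of 4-fold and 53.0% of 2-fold changes were recovered for high against baseline Nras (11250 genes), 96.8% and 38.5% by depth (7046 genes) and 73.2% and 21.7% for Glul (4052 genes). The simulation gave all mice the same gene profile and changed only genes above a count limit. These rates therefore leave out differences between mice and genes of few counts. Levels are CPM, with Nras and mVenus left out of the totals. Intervals are exact and cover counting error only.

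Named genes were all 8 members, up to 6 passing genes of each list with the largest change, up to 4 regulators and 5 genes of most similar level. Coordinates are from GENCODE and promoters from RefSeq.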

Additional observations from a re-analysis of the deposited data

How the results depend on the processing

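In the high against baseline comparison all 8 genes had negative estimates under all 17 alternatives, and 8 of 8 passed wherever a test was possible, except with a marker share of at least 5% (7, without Asl). The same direction held for all values of the intermediate against baseline comparison. Without mouse 1 or without mouse 2 no residual degrees of freedom were left for the Nras classes, and those values have no test. Results for the 8 genes changed most often with the processing in the depth and Glul comparisons, which rest on 3 mice. Glul-high sums held 19 or 20 barcodes per mouse, and the intermediate Nras sum of mouse 1 held 20.

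The number of the 8 genes that passed changed by over 1.5 times as follows. With a marker share of at least 5% it was 3 at intermediate Nras and 2 by depth. By depth it was 2 with the fixed hashtag rule, 3 after thinning within each set and 5 to 7 with a mouse left out. Between high and intermediate Nras it was 3 without the filter and 1 with the fixed hashtag rule. For Glul it was 0 in DESeq2, 0 without the replicate block, 4 without the filter, 7 with the fixed hashtag rule, 2 without barcodes with other cell markers, 2 after thinning, 3 with Glul-high from 2000 CPM and 0 to 2 with a mouse left out. A marker share of at least 5% left Glul-high sums in too few mice for a test. The cause was not tested.

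Counts over all genes moved too. For high against baseline they were 1333 in DESeq2, 1115 at a marker share of 5% and 1167 after thinning (2597 as reported). For intermediate against baseline they were 964, 368 and 740 in the same order (1876). Between high and intermediate they were 8 in DESeq2, 199 without the filter, 0 without the block, 9 at a marker share of 5%, 7 with the fixed hashtag rule, 11 without barcodes with other cell markers, 9 after thinning, 0 with Nras limits at 1.5 times and 20 with sums of at least 1 cell (1). By depth they were 114 at a marker share of 5%, 358 with the fixed hashtag rule, 607 after thinning and 968 to 2980 with a mouse left out (2448). For Glul they were 27 in DESeq2, 189 without the filter, 9 without the replicate block, 71 with library size alone, 126 at a mitochondrial limit of 50%, 191 with the fixed hashtag rule, 89 after thinning, 100 with Glul-high from 2000 CPM, 21 from 2000 UMIs, 24 with Glul-low barcodes matched in depth and 13 to 222 with a mouse left out (46).

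The fit without the replicate block called 8, 8 and 0 of the 8 genes between Nras classes, 6 by depth (without Hal and Sds) and 0 for Glul. Estimates changed sign for Sds between high and intermediate Nras (-0.27 at a marker share of 5%, -0.15 with the fixed hashtag rule), for Hal by depth (0.15 at a marker share of 5%) and for Asl in Glul-high barcodes (0.087 after thinning, and -0.34 to 0.031 with a mouse left out, the highest without mouse 3). Without mouse 2, where no test was left, Asl was at 0.11, Hal at 0.09 and Sds at -0.08 between high and intermediate Nras. Library size alone moved the median of all genes by depth from 0.00 to -0.19 and Cps1 from 0.82 to 0.63, with all 8 genes still passing. The alternatives with sums of at least 1 cell, with library size alone and with matched depth were chosen after seeing the data.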
